A study of Macaca mulatta with 136 samples.

Results

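The genes described here are 7 transcription factors that divide the retina along its axes in development: FOXD1, VAX2, TBX2, TBX3, TBX5, NR2F1 and NR2F2. They were chosen by symbol from the 19432 gene entries of each deposited file, and each of the 7 symbols matched 1 entry. The samples were 2 mm punches from both postmortem eyes of 2 adult rhesus macaques with no treatment given in the labels, RM03 and RM04, taken at the fovea, the perimacula, the periphery and a nasal location. The study describes the first 3 locations as contiguous and names the periphery as temporal, and its own comparisons left the nasal samples out. Retina and RPE/choroid (pigment epithelium plus the underlying vascular layer) were separated in each punch, which gave 32 libraries, 4 eyes in each of 2 tissues at each of 4 locations. Because the 4 eyes came from 2 animals, the p-values below measure the spread between eyes after the animal was taken into account, and say little about other animals.

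Early in eye development the optic cup is divided by transcription factors with opposed territories. FOXD1 marks the temporal part, VAX2 marks the ventral part, and TBX2, TBX3 and TBX5 mark the dorsal part under the influence of BMP signals. The orphan nuclear receptors NR2F1 and NR2F2, also named COUP-TFI and COUP-TFII, are graded along the same axes, and NR2F2 is in addition a well-known factor of venous endothelium.

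Libraries held 42454001 to 78587023 estimated counts. Each library from fovea, perimacula or nasal tissue was run on 5 lanes in 2 flow cells, whereas every peripheral library was run on 2 lanes in a separate flow cell, and in all comparisons below an effect of the periphery and of that flow cell cannot be told apart. The labelled tissues carried their defining markers: RPE65, the visual cycle isomerase of pigment epithelium, ranged from 481 to 8594 CPM, counts scaled to the library size, in RPE/choroid and from 52.2 to 219 in retina, and SAG, the arrestin of rod photoreceptors, from 1222 to 11941 CPM in retina and from 6.21 to 395 in RPE/choroid. In bulk tissue, fewer cells of a type and less RNA per cell cannot be told apart. Levels are TMM-normalized CPM, given for the RM03 right, RM03 left, RM04 right and RM04 left eye in that order. Differences are log2 fold changes ± standard error from edgeR's quasi-likelihood test, with Benjamini-Hochberg adjustment over all genes of the fit. A difference was called at an adjusted p under 0.05.

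**Figure D1:**
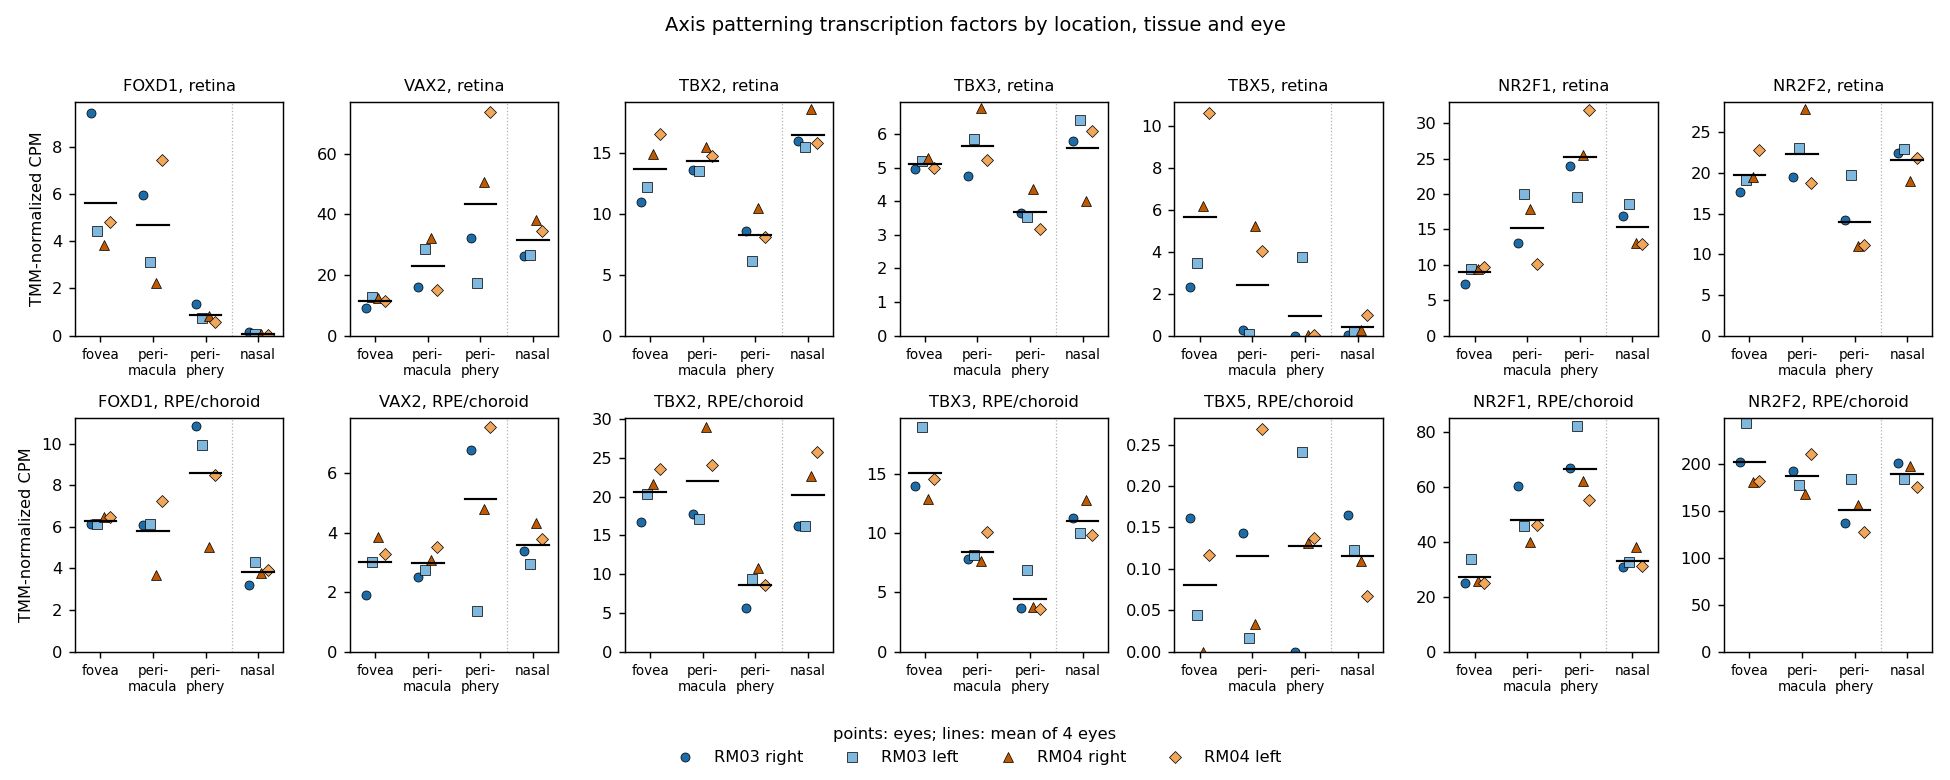
TMM-normalized CPM (vertical axes, linear, from 0, scaled separately in each panel) of the 7 genes by location (horizontal axes), in retina above and RPE/choroid below; points are single eyes and lines are means of 4 eyes. FOXD1 is near 0 in the nasal retina, with a mean of 0.0707 CPM, and is present at every location of RPE/choroid.

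FOXD1, the temporal factor, separated the nasal retina from the other 3 locations. In the nasal retina it stood at 0.137, 0.0651, 0.0509 and 0.0294 CPM, which were 8, 4, 3 and 2 estimated counts. In the fovea it stood at 9.43, 4.44, 3.84 and 4.82 CPM and in the perimacula at 5.94, 3.14, 2.23 and 7.45 CPM. The periphery was intermediate, at 1.36, 0.757, 0.811 and 0.591 CPM. Every nasal eye lay below every eye of the other 3 locations, and every peripheral eye below every foveal and perimacular eye.

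Against the perimacula, which was sequenced on the same flow cells, FOXD1 was 68.2-fold lower in the nasal retina (log2 -6.09 ± 0.53, edgeR adjusted p = 0.000222), and it had the lowest p of the 15495 genes tested. No other of the 7 genes was called in that comparison, in which 1.43% of all genes tested were called. The difference was -6.35 ± 0.53 against the fovea (adjusted p = 4.43e-07) and -3.64 ± 0.55 against the periphery (adjusted p = 9.33e-05). Fovea and perimacula did not differ beyond their spread (0.26 ± 0.37, adjusted p = 0.604), while the fovea exceeded the periphery by 2.71 ± 0.39 (adjusted p = 2.25e-05) and the perimacula exceeded it by 2.45 ± 0.39 (adjusted p = 0.000116). The order in retina was therefore fovea and perimacula, then periphery, then nasal.

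A list of 11 ganglion cell markers also changed with location in retina, and its part in the FOXD1 result was not tested. Its summed level ranged from 10433 to 12341 CPM in the fovea, from 3229 to 6966 in the perimacula, from 588 to 1270 in the periphery and from 2336 to 2634 in the nasal retina. The list was thus higher in the nasal retina than in the periphery, whereas FOXD1 was lower there. Of its genes, 2 of 11 were called lower in the nasal retina than in the perimacula and 0 were called higher. Over all genes tested, 0.432% were called lower and 0.994% higher in that comparison. A list of 11 RPE markers also changed with location in the retina libraries. It summed to 348 to 480 CPM in the fovea and 538 to 857 in the perimacula. The nasal retina held 1077 to 1288 CPM of it and the periphery 1928 to 2742. The part of RPE/choroid RNA in the retina values of FOXD1 and the other members was not tested.

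In RPE/choroid FOXD1 did not follow the same order. It stood at 3.20, 4.32, 3.77 and 3.94 CPM at the nasal location, at 6.12, 6.13, 6.48 and 6.47 CPM in the fovea, at 6.09, 6.14, 3.68 and 7.23 CPM in the perimacula and at 10.9, 9.93, 5.03 and 8.50 CPM in the periphery. The nasal eyes lay below all foveal and all peripheral eyes and overlapped those of the perimacula through the right eye of RM04. The nasal level was 2.24-fold lower than that of the periphery (-1.16 ± 0.23, adjusted p = 0.000871). The differences from the fovea (-0.73 ± 0.23, adjusted p = 0.160) and the perimacula (-0.59 ± 0.23, adjusted p = 0.163) were not called by edgeR, and the first was called when only the libraries of the compared locations were fitted (adjusted p = 0.0348). No neighbours in the order periphery, fovea, perimacula, nasal differed by the test when all eyes were used. Fovea against periphery (-0.43 ± 0.22, adjusted p = 0.128) was called without the right eye of RM04 (-0.66, adjusted p = 0.0109). Perimacula against periphery lay close to the threshold (-0.57 ± 0.22, adjusted p = 0.0579, or 0.0395 by DESeq2 and 0.0482 with the eye as a block).

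The dependence of FOXD1 on location differed between the tissues in 5 of the 6 pairs of locations. The nasal difference was larger in retina than in RPE/choroid by -5.56 ± 0.55 on the log2 scale against the fovea (adjusted p = 1.61e-07), by -5.47 ± 0.55 against the perimacula (adjusted p = 3.94e-06) and by -2.48 ± 0.55 against the periphery (adjusted p = 0.00335). Of the 16391 genes tested, 23.5%, 0.83% and 15.3% were called in these comparisons of tissues, and FOXD1 was the only member called in each. Fovea against periphery also differed between the tissues, by 3.08 ± 0.47 (adjusted p = 8.42e-06), as did perimacula against periphery, by 2.99 ± 0.47 (adjusted p = 6.18e-05), with the larger excess over the periphery in retina. The 7 members gave 3 and 1 calls there, beside 43.5% and 18.9% of all genes.

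VAX2, the ventral factor, rose outward from the fovea in retina. The fovea held 9.08, 12.7, 12.3 and 11.6 CPM and the nasal retina 26.3, 26.6, 38.2 and 34.5 CPM, so that all nasal eyes lay above all foveal eyes. The perimacula held 16.2, 28.4, 32.05 and 14.99 CPM and the periphery 32.04, 17.2, 50.8 and 73.8 CPM, both overlapping the nasal range. The nasal level was 2.59-fold that of the fovea (1.38 ± 0.32, adjusted p = 0.00272), and 4 of the 7 members were called in nasal against fovea, in which 51.7% of all genes tested were called. VAX2 was also lower in the fovea than in the perimacula (-0.96 ± 0.32, adjusted p = 0.0289) and the periphery (-1.79 ± 0.33, adjusted p = 0.000229). In the order periphery, nasal, perimacula, fovea, only the last neighbours differed.

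Eyes varied more in VAX2 outside the fovea than within it. In the perimacula the left eye of RM03 and the right eye of RM04 were high and the other eyes low, and in the periphery the left eye of RM03 was lowest. Perimacula against periphery was called (-0.83 ± 0.32, adjusted p = 0.0406), but not without the right eye of RM03 (adjusted p = 0.142), the right eye of RM04 (adjusted p = 0.139) or the left eye of RM04, without which the difference shrank to -0.27 (adjusted p = 0.460). Nor was it called with RLE normalization (adjusted p = 0.0504), no filter (adjusted p = 0.0710) or the compared locations only (adjusted p = 0.155). The call of fovea against perimacula was lost without the right eye of RM03 (adjusted p = 0.109) or that of RM04 (adjusted p = 0.201). Its adjusted p was 0.0558 with no covariate and 0.0515 with the first 2 lanes.

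In RPE/choroid VAX2 was not called between any pair of locations. It stood at 1.91 to 3.85 CPM in the fovea, 2.51 to 3.52 in the perimacula, 2.93 to 4.31 at the nasal location and 6.78, 1.37, 4.79 and 7.56 CPM in the periphery. Without the low left eye of RM03, the periphery was called above the fovea (-1.13, adjusted p = 0.00554), the perimacula (-1.11, adjusted p = 0.00705) and the nasal location (-0.77, adjusted p = 0.0344). In the same 4 peripheral libraries a list of 9 rod markers summed to 924, 126, 213 and 691 CPM, so the left eye of RM03 was lowest in both. The part of retinal RNA in these VAX2 values was not tested.

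TBX2, a dorsal T-box factor, changed mainly at the periphery. Nasal retina held 15.95, 15.5, 18.6 and 15.8 CPM, and the periphery 8.56, 6.12, 10.5 and 8.06 CPM, with no overlap. The nasal level was 1.97-fold that of the periphery (0.98 ± 0.12, adjusted p = 1.21e-05). It did not differ by the test from the fovea (0.22 ± 0.12, adjusted p = 0.128) or the perimacula (0.19 ± 0.12, adjusted p = 0.458), which held 10.97 to 16.5 and 13.5 to 15.5 CPM. In nasal against periphery, 5 of the 7 members were called in retina, where 48.2% of all genes were called.

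In RPE/choroid TBX2 was also lowest in the periphery. The nasal location held 16.2, 16.2, 22.6 and 25.8 CPM and the periphery 5.58, 9.38, 10.8 and 8.60 CPM, again without overlap. The difference was 1.21 ± 0.14 (adjusted p = 1.12e-05), and fovea and perimacula exceeded the periphery by 1.26 ± 0.14 (adjusted p = 7.55e-06) and 1.33 ± 0.14 (adjusted p = 7.5e-06). The nasal difference from the periphery was not called different between the tissues (-0.22 ± 0.20 as retina minus RPE/choroid, adjusted p = 0.483). Fovea against periphery was larger in RPE/choroid than in retina by 0.55 ± 0.20 (-0.55 as retina minus RPE/choroid, adjusted p = 0.0247). That call was lost without the right eye of RM03 (-0.35, adjusted p = 0.218), the right eye of RM04 (adjusted p = 0.0950) or the left eye of RM04 (adjusted p = 0.0576). Its adjusted p was 0.134 with no covariate and 0.0927 with the first 2 lanes.

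TBX3, a dorsal T-box repressor, was likewise lower in the peripheral retina. It stood at 5.80, 6.41, 4.01 and 6.10 CPM in the nasal retina and at 3.64, 3.54, 4.35 and 3.17 CPM in the periphery, ranges that met only through the right eye of RM04. The difference was 0.58 ± 0.16 (adjusted p = 0.00610). The fovea (4.96 to 5.29 CPM) and the perimacula (4.74 to 6.78 CPM) did not differ from the nasal retina by the test (adjusted p = 0.736 and 0.961).

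TBX3 had a steeper gradient in RPE/choroid. The fovea held 13.99, 18.97, 12.9 and 14.5 CPM, the nasal location 11.3, 10.0, 12.8 and 9.82, the perimacula 7.78, 8.11, 7.61 and 10.1, and the periphery 3.68, 6.89, 3.72 and 3.55 CPM. No foveal eye overlapped any eye of the other 3 locations. The nasal level was 2.48-fold that of the periphery (1.31 ± 0.20, adjusted p = 0.000134), and the foveal level 3.39-fold (1.76 ± 0.21, adjusted p = 1e-05). The steps from fovea to nasal (adjusted p = 0.301) and from nasal to perimacula (adjusted p = 0.302) were not called. Fovea against perimacula (0.84 ± 0.20) had an adjusted p of 0.102 by edgeR and 0.00544 by DESeq2. The gradient differed between tissues, the retina being lower by 0.99 ± 0.26 in fovea against perimacula (-0.99, adjusted p = 0.0114, where TBX3 was the 1 member called beside 15.2% of all genes) and by 1.29 ± 0.26 in fovea against periphery (-1.29, adjusted p = 0.000283). The first of these calls was lost without the right eye of RM03 (adjusted p = 0.0666) or of RM04 (adjusted p = 0.0756).

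TBX2, TBX3 and NR2F2 all stepped down at the periphery of RPE/choroid, where vascular markers did too. A list of 8 endothelial markers summed to 1906 to 2904 CPM in the fovea, 1495 to 2423 in the perimacula, 2060 to 2380 at the nasal location and 1218 to 1549 in the periphery. A list of 7 smooth muscle and pericyte markers ranged from 3610 to 5907 CPM at the nasal location and from 1045 to 2540 in the periphery. In nasal against periphery, 6 of 8 endothelial and 7 of 7 smooth muscle genes were called higher at the nasal location. Over all genes tested, 21.7% were called higher there. The part of these markers in the results for the 3 factors was not tested.

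TBX5, the most restricted of the dorsal factors, differed widely between eyes in the perimacula and the periphery of the retina. The foveal retina held 2.34, 3.46, 6.18 and 10.6 CPM. The nasal retina held 0.0515, 0.244, 0.272 and 1.00 CPM, all below every foveal eye. Nasal was lower than fovea by 15.04-fold (-3.91 ± 1.505, adjusted p = 0.0432), a call that was lost without the right eye of RM03 (adjusted p = 0.0968), the right eye of RM04 (adjusted p = 0.112) or the left eye of RM04 (adjusted p = 0.0855). With all eyes, it was also lost with no filter (adjusted p = 0.0647), no covariate (adjusted p = 0.0550) or the first 2 lanes (adjusted p = 0.0608).

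At the other locations TBX5 was present in some eyes and almost absent in others. The perimacula held 0.263 and 0.0547 CPM in the eyes of RM03, 11 and 3 estimated counts, but 5.24 and 4.04 CPM in those of RM04, 320 and 219 counts. In the periphery the left eye of RM03 held 3.76 CPM, 258 counts, and the others 0, 0.0270 and 0.0473 CPM, which were 0, 2 and 4 counts. No comparison of TBX5 with the perimacula or the periphery was called in the fit of all 16 retina libraries. Fovea against perimacula (1.56 ± 1.34, adjusted p = 0.382) was called when only the libraries of those locations were fitted (2.04, adjusted p = 0.0419) and without the left eye of RM03 (1.43, adjusted p = 0.0412). Without the left eye of RM03, fovea exceeded periphery by 8.18 (adjusted p = 6.25e-06), perimacula exceeded periphery by 6.76 (adjusted p = 7.77e-05), and nasal against periphery turned from -1.97 ± 1.64 to 4.015 (adjusted p = 0.00411). These fitted values rest on peripheral libraries with 0 to 4 counts.

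The left eye of RM03 also stood apart in other members in the peripheral retina. It had the lowest VAX2, 17.2 CPM, the lowest NR2F1, 19.5 CPM, the lowest TBX2, 6.12 CPM, and the highest NR2F2, 19.7 CPM. Its TBX3 (3.54 CPM) and FOXD1 (0.757 CPM) lay within the range of the other eyes. Its ganglion list summed to 588 CPM, against 784 to 1270 in the other eyes, and its lists of amacrine and bipolar markers were lowest as well, at 281 and 750 CPM. Its list of 9 rod markers was the highest, at 28035 CPM. In the perimacula the right eye of RM04 was highest in both TBX5 and VAX2, and the left eye of RM04, also high in TBX5, was lowest in VAX2. The part of sampling position and of cell composition in these differences between eyes was not tested.

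**Figure D2:**
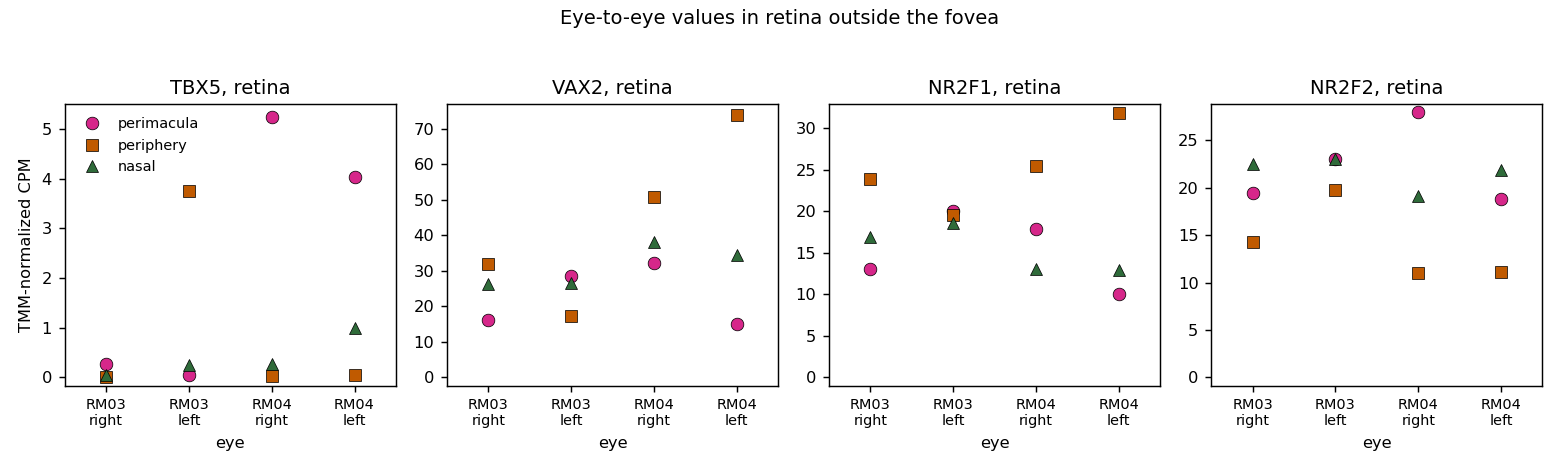
TMM-normalized CPM (vertical axes, linear) of TBX5, VAX2, NR2F1 and NR2F2 in retina for each eye (horizontal axes) at the perimacula, periphery and nasal location; each point is 1 library. In the periphery the RM03 left eye is highest in TBX5 (3.76 CPM) and NR2F2 (19.7 CPM) and lowest in VAX2 (17.2 CPM) and NR2F1 (19.5 CPM).

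In RPE/choroid TBX5 stayed between 0 and 0.269 CPM in all 16 libraries and did not pass the filter on low counts, so 6 of the 7 members were tested between locations there. TBX3 and TBX5 lie next to each other on the chromosome in the RefSeq gene table used here, and TBX3 was at 3.17 CPM or more in all 32 libraries.

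NR2F1, a COUP-TF receptor, rose from the fovea outward in both tissues. In retina the fovea held 7.36, 9.38, 9.42 and 9.65 CPM, the perimacula 13.1, 20.003, 17.9 and 10.1, the nasal location 16.9, 18.7, 13.1 and 12.97, and the periphery 23.9, 19.5, 25.5 and 31.8 CPM. Nasal eyes lay above all foveal and below all peripheral eyes, and among the perimacular ones. The nasal level exceeded the fovea by 0.72 ± 0.21 (adjusted p = 0.0100) and lay below the periphery by 0.73 ± 0.21 (-0.73, adjusted p = 0.00911), while against the perimacula the difference was 0.00086 ± 0.21 (adjusted p = 0.999). The first call was lost without the right eye of RM03 (adjusted p = 0.0995), and the second without the right (adjusted p = 0.0947) or left eye of RM04 (-0.47, adjusted p = 0.0687).

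In RPE/choroid NR2F1 was the only member called between the nasal location and the perimacula. The nasal location held 30.7, 32.7, 37.9 and 31.2 CPM and the perimacula 60.5, 45.9, 39.8 and 46.3 CPM, with no overlap. The difference was -0.52 ± 0.13 (adjusted p = 0.0483), where 3.24% of 15798 genes were called. With the eye as a block the adjusted p was 0.0753, and the call was lost on leaving out any eye (adjusted p from 0.0838 to 0.272). Against the periphery, at 66.8, 82.3, 62.1 and 55.0 CPM, the nasal level was 1.998-fold lower (-0.998 ± 0.13, adjusted p = 3.3e-05), and 5 of 6 members tested were called there beside 44.2% of all genes. The fovea held 25.1, 33.7, 25.6 and 24.8 CPM, lower than the perimacula by 0.81 ± 0.13 (-0.81, adjusted p = 0.0296, or 0.0606 with the eye as a block and 0.0637 to 0.230 on leaving out any eye) where 0.177% of genes were called, and not called against nasal (0.29 ± 0.13, adjusted p = 0.314).

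A list of 5 Schwann cell markers differed widely among the same RPE/choroid libraries. It summed to 197 to 285 CPM at the nasal location and 261 to 315 in the fovea, to 9041, 280, 336 and 2422 CPM in the perimacula and to 5032, 14447, 611 and 1165 CPM in the periphery. The perimacular eye with the highest list, the right eye of RM03, was also that with the highest NR2F1, and so was the peripheral eye with the highest list, the left eye of RM03. The eyes with the lowest lists did not keep this order. In the perimacula the left eye of RM03 had a lower list than the right eye of RM04 but more NR2F1 (45.9 against 39.8 CPM). In the periphery the right eye of RM04 had a lower list than its left eye but more NR2F1 (62.1 against 55.0 CPM). Fibroblast markers, 6 genes, summed to 4990 to 10019 CPM in the periphery and 3250 to 4775 at the nasal location. The part of either list in the NR2F1 results was not tested.

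NR2F2, the other COUP-TF receptor, had its lowest mean level in the periphery in both tissues. In retina it stood at 22.5, 23.002, 19.1 and 21.9 CPM at the nasal location and at 14.3, 19.7, 11.01 and 11.1 CPM in the periphery, which overlapped in the left eye of RM03. The nasal level was 1.53-fold that of the periphery (0.62 ± 0.17, adjusted p = 0.00678). Fovea (17.7 to 22.8 CPM) and perimacula (18.8 to 27.9 CPM) did not differ from nasal by the test (adjusted p = 0.784 and 0.906). In RPE/choroid the nasal location held 201, 183, 198 and 175 CPM and the periphery 137, 184, 156 and 127 CPM, a 1.25-fold difference (0.32 ± 0.11, adjusted p = 0.0304) that was lost without the right eye of RM03 (adjusted p = 0.191), the right eye of RM04 (adjusted p = 0.115) or the left eye of RM04 (adjusted p = 0.0930). Perimacula exceeded periphery by 0.30 ± 0.11 (adjusted p = 0.0474, or 0.0595 with the eye as a block). That call was lost without the right eye of RM03 (adjusted p = 0.202), the right eye of RM04 (adjusted p = 0.0724) or the left eye of RM04 (0.15, adjusted p = 0.379). With no covariate, the first 2 lanes and the compared locations only, its adjusted p was 0.0789, 0.0879 and 0.120. That of nasal against periphery was 0.0510, 0.0591 and 0.0641 in the same order.

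**Figure D3:**
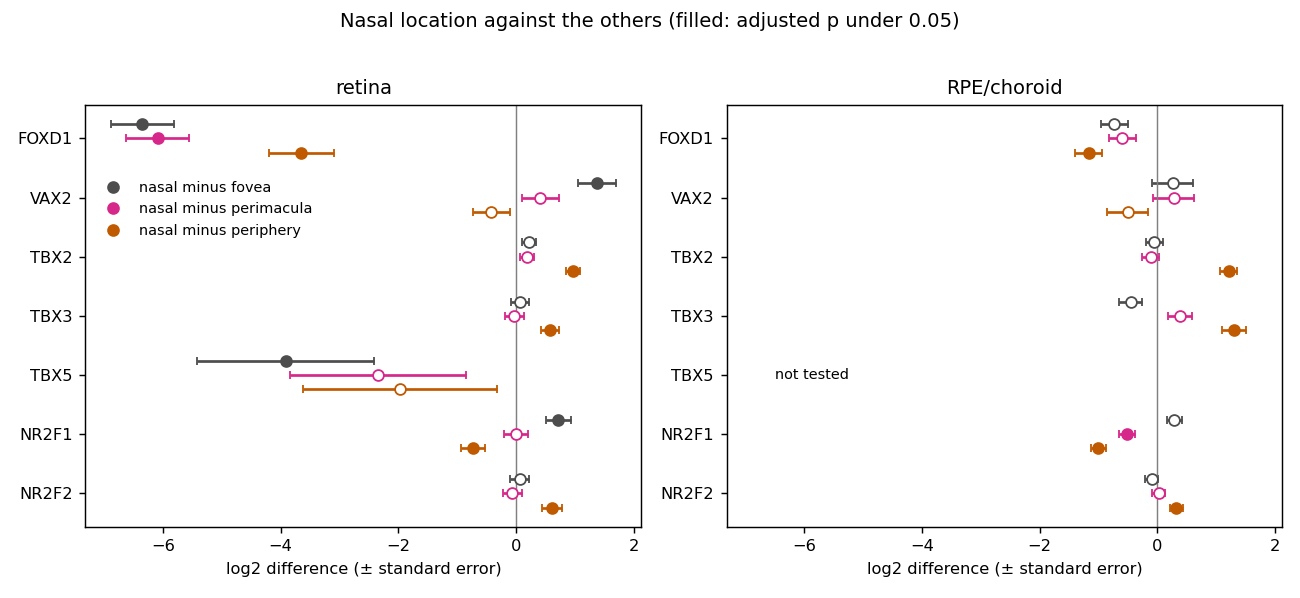
Log2 difference of the nasal location from the fovea, perimacula and periphery (horizontal axes, ± standard error) for each member in retina and in RPE/choroid; filled points have an edgeR adjusted p under 0.05, and TBX5 was not tested in RPE/choroid. FOXD1 in retina lies at -6.35, -6.09 and -3.64, and of the other 6 members none is filled against the perimacula in retina.

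Over the members and over all genes, the nasal location gave the fewest calls against the perimacula in retina and the fovea in RPE/choroid. In retina 4, 1 and 5 of the 7 members were called against fovea, perimacula and periphery, the first 2 beside 51.7% and 1.43% of all genes. In RPE/choroid 0, 1 and 5 of the 6 tested were called, the first 2 beside 0.386% and 3.24% of all genes. For nasal against fovea in RPE/choroid, 61 genes, 0.386%, were called by edgeR and 2447 had an unadjusted p under 0.05. Both counts of 5 stand beside 48.2% and 44.2% of all genes called in retina and RPE/choroid. Among the locations of retina other than nasal, 2, 6 and 6 of the 7 were called in fovea against perimacula, fovea against periphery and perimacula against periphery, beside 40%, 69.4% and 54.1% of all genes. In RPE/choroid these comparisons called 1, 4 and 4 of 6, beside 0.177%, 47.6% and 38.5%.

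The tissues differed in most members. VAX2 was higher in retina at all 4 locations, by 1.95 ± 0.35 in the fovea, 2.97 ± 0.36 in the perimacula, 3.12 ± 0.36 at the nasal location and 3.02 ± 0.35 in the periphery (adjusted p at most 1.53e-05). NR2F2 was higher in RPE/choroid at all 4, by 10.1-, 8.36-, 8.77- and 10.8-fold, and NR2F1 by 3.03-, 3.14-, 2.17- and 2.62-fold (adjusted p at most 4.67e-06). In fovea, perimacula, nasal location and periphery, 6, 6, 5 and 5 of the 7 members were called, beside 75.4%, 76.7%, 76.1% and 75.6% of all genes.

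FOXD1 was the member whose tissue difference depended most on location. It did not differ between tissues by the test in the fovea (-0.20 ± 0.32, adjusted p = 0.583) or the perimacula (-0.29 ± 0.32, adjusted p = 0.417). It was 9.72-fold higher in RPE/choroid than in retina in the periphery (-3.28 ± 0.36, adjusted p = 4.75e-09) and 54.3-fold higher at the nasal location (-5.76 ± 0.45, adjusted p = 6.22e-12). TBX3 was higher in RPE/choroid in the fovea (-1.56 ± 0.19, adjusted p = 3.34e-08), the perimacula (-0.57 ± 0.19, adjusted p = 0.00727, lost without the left eye of RM04 at 0.114) and at the nasal location (-0.98 ± 0.19, adjusted p = 3.67e-05). TBX2 was higher there in the fovea (-0.60 ± 0.14, adjusted p = 0.000379) and perimacula (-0.59 ± 0.14, adjusted p = 0.000439). TBX5 was higher in retina in the fovea (5.87 ± 1.57, adjusted p = 0.00151) and the perimacula (4.13 ± 1.46, adjusted p = 0.0129, or 0.133 without the right eye of RM04). At the periphery its difference was 3.21 ± 1.42 (adjusted p = 0.0437, or 0.102 with the eye as a block and 0.0636 with no covariate). It turned to -1.66 without the left eye of RM03, and the call was lost on leaving out any of the other eyes (adjusted p from 0.0501 to 0.0979).

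**Figure D4:**
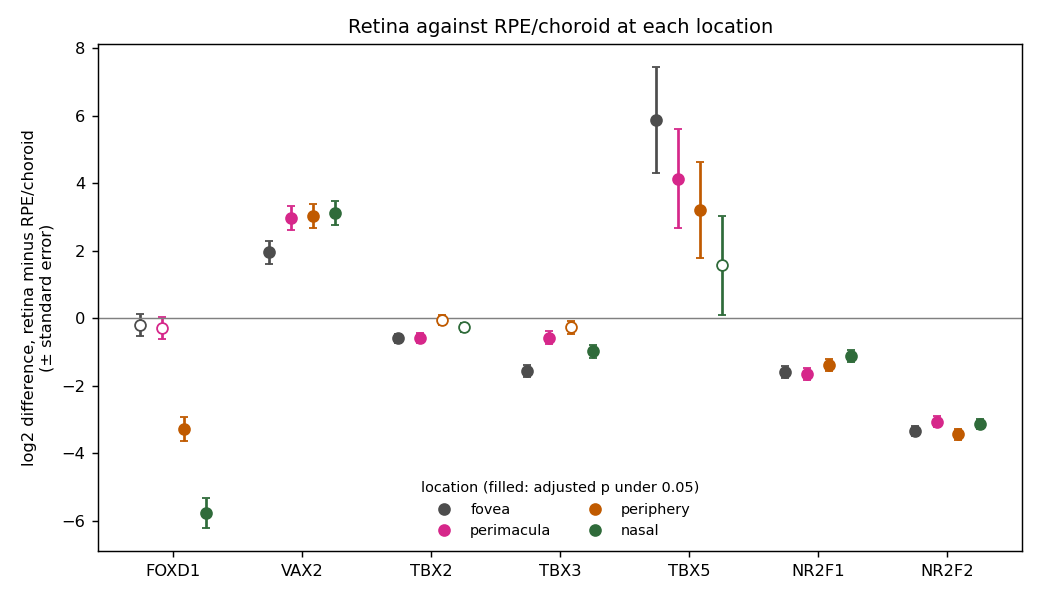
Log2 difference between retina and RPE/choroid (vertical axis, ± standard error, above 0 where retina is higher) for each member at the 4 locations; filled points have an edgeR adjusted p under 0.05. FOXD1 moves from -0.20 in the fovea to -5.76 at the nasal location, while VAX2 stays between 1.95 and 3.12.

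Other genes of the same axes were chosen as lists with earlier results known. Between the nasal retina and the perimacula, 1.43% of all genes tested were called. In the list of dorsal and ventral signals 2 of 17 were called, both higher in the nasal retina: the BMP receptor BMPR1B (0.82 ± 0.12, adjusted p = 0.00356) and the BMP antagonist CHRDL1 (0.55 ± 0.11, adjusted p = 0.0226). BMPR1B stood at 20.4, 17.9, 13.5 and 17.6 CPM in the nasal retina and at 11.8, 9.97, 8.63 and 8.70 CPM in the perimacula, without overlap.

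The other lists gave 3 more genes in retina. RDH10, a retinol dehydrogenase of retinoic acid synthesis, was higher in the nasal retina (1.17 ± 0.15, adjusted p = 0.00234), at 138 to 157 CPM against 45.9 to 76.3. RXRG, a retinoid receptor of cones, was lower (-0.68 ± 0.15, adjusted p = 0.0366), and these were 2 of 13 genes of the retinoic acid list. PAX2, a factor of the optic stalk and of astrocytes, was the only called gene of 17 optic cup factors tested (2.97 ± 0.67, adjusted p = 0.0433), at 1.202 to 2.26 CPM in the nasal retina and at most 0.532 CPM in every other retina library.

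In RPE/choroid the same comparison called 3.24% of all genes tested. Of the lists it called 0 of 7 nasal-temporal genes, 1 of 17 dorsal and ventral signals, 0 of 13 retinoic acid genes and 2 of 14 optic cup factors. The signal was EFNB2, a membrane-bound ephrin (0.70 ± 0.11, adjusted p = 0.00515). The factors were MEIS1 (1.40 ± 0.31, adjusted p = 0.0311) and PAX6 (2.04 ± 0.51, adjusted p = 0.0477), all 3 higher at the nasal location. The rod list summed to 71.9 to 184 CPM at the nasal location and 50.1 to 113 in the perimacula of RPE/choroid, with 0 of 9 genes called, and its part in the MEIS1 and PAX6 values was not tested.

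The gene whose pattern over the 16 retina libraries was closest to that of FOXD1 was SLC6A2, the noradrenaline transporter. The root mean square difference of the 2 centred log2 CPM profiles was 1.13, against a root mean square of 2.37 for FOXD1 about its own mean. SLC6A2 stood at 0.0687, 0.1301, 0.0509 and 0.132 CPM in the nasal retina, which were only 4, 8, 3 and 9 estimated counts. In the perimacula it stood at 0.862, 1.04, 1.15 and 1.71 CPM, again with no overlap. For VAX2 the nearest profiles were TPPP3 (0.26, against 0.82 for VAX2 itself) and SMIM24 (0.28), for TBX2 C5orf15 (0.14, against 0.43) and TFAP2B (0.15), and for NR2F1 IMPDH1 (0.19, against 0.59) and MTHFS (0.19). In RPE/choroid the profile nearest to TBX3 was that of CNNM2 (0.19, against 0.71 for TBX3), and the nearest to NR2F1 was that of LGALS1 (0.21, against 0.53 for NR2F1). No close profile was found for TBX5, whose nearest gene, ACSBG2, differed by 1.87 against 2.73.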

How the data were processed

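RNA-seq was made from 2 mm punches with PicoPure extraction, polyA selection and paired reads. Per lane, the authors quantified transcripts against Mmul_8.0.1 using Salmon 0.13, and tximport collapsed these to genes. The deposited values, in a column headed TPM, are estimated counts scaled by length and library, since lane totals ran from 7933344 to 39445657. Symbols are human orthologues. Of the 7 members, 6 identifiers carried the same symbol in the reference gene table, and that of VAX2 was not listed there. TBX2 had an orthology support of 0 in the deposited column and FOXD1 of 2, against 8 to 10 for the others.

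The 136 lanes were summed to 32 libraries and rounded. Tests used edgeR 4.0.16 with limma 3.58.1 in R 4.3.3 (TMM, filterByExpr at a minimum count of 10, quasi-likelihood, location and animal as terms), in 3 fits: 16 retina libraries, 16 RPE/choroid libraries, and all 32 for tissue differences and their dependence on location, 22 comparisons in all. Log2 CPM used a prior count of 2. Retina fits tested 15495 genes and RPE/choroid fits 15798. Tables were made in Python 3.11.15 (pandas 2.3.3, numpy 2.4.6, scipy 1.17.1). The fits were tested on simulated data.

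Same-eye libraries deviated together (mean correlation across 1000 genes 0.58 in retina and 0.40 in RPE/choroid), as did fellow eyes of an animal (0.57 and 0.41). After subtraction of the animal mean, retina libraries of the same eye correlated at only 0.018, and those of RPE/choroid at -0.027. Little shared deviation of an eye was thus seen beyond that of its animal. The labels give the animal and the eye, so both pair the samples, with the animal as the main term and the eye block as the alternative. Members and lists were chosen with earlier results of these data known. Named beside the members are, from each list and tissue, up to 3 called genes with the lowest adjusted p in nasal against perimacula, and the 2 genes with the profile closest to each member. Alternatives were DESeq2 1.42.0, RLE normalization, other filters, the eye block, no covariate, the first 2 lanes, the compared locations only and leaving out each eye. No sequences were used here, and some results for single genes outside the members are not reported here.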

Additional observations from a re-analysis of the deposited data

Results flagged for a closer look

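The change with location differed between retina and RPE/choroid, by edgeR's test of the difference itself, in 8 cases. As retina minus RPE/choroid on the log2 scale, FOXD1 differed by -5.56 in nasal against fovea, by -5.47 in nasal against perimacula, by -2.48 in nasal against periphery, by 3.08 in fovea against periphery and by 2.99 in perimacula against periphery. TBX3 differed by -0.99 in fovea against perimacula and by -1.29 in fovea against periphery, and TBX2 by -0.55 in fovea against periphery.

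In 3 of 56 groups of 4 eyes, 1 eye lay far from the others by Dixon's ratio, above its 95% critical value. The ratio sets the gap of that eye against the range of the group, on the log2 CPM scale. TBX5 in the peripheral retina, with 3.76 CPM in the RM03 left eye, was not among the 3 on that scale. Chance marks about 1 in 20 such groups. TBX3 was high in the peripheral RPE/choroid of the RM03 left eye (6.89 CPM, ratio 0.929), NR2F1 was low in the foveal retina of the RM03 right eye (7.36 CPM, ratio 0.896), and NR2F1 was high in the foveal RPE/choroid of the RM03 left eye (33.7 CPM, ratio 0.902).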

How the results depend on the processing

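FOXD1 in retina was called lower at the nasal location than at the other 3 in all 11 alternatives that tested it, from -6.54 to -6.16 against the fovea, from -6.44 to -5.45 against the perimacula and from -3.89 to -3.51 against the periphery on leaving out each eye in turn. A minimum of 10 counts in every library removed FOXD1 and TBX5 from the retina fit and the fit of all libraries, which left 2 members called in nasal against fovea and 0 against perimacula in retina, 3 between the tissues at the periphery, and 0 for the tissue difference of nasal against fovea, perimacula and periphery and of perimacula against periphery. Over the 12 alternatives and all comparisons that could be fitted, 1526 values of single members kept their direction and their side of the threshold, 68 lost a call, 25 gained one and 55 changed sign.

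The cause of the following changes was not tested. Of the member counts, fovea against perimacula in retina fell from 2 to 1 with no covariate or the first 2 lanes, and nasal against fovea in RPE/choroid rose from 0 to 1 with the compared locations only. Nasal against perimacula in RPE/choroid fell from 1 to 0 with no filter, the eye as a replicate block, no covariate or the first 2 lanes. Fovea against perimacula there fell from 1 to 0 with the replicate block or no covariate and rose to 2 with DESeq2 or the compared locations only. Of the tissue differences, nasal against periphery and perimacula against periphery rose from 1 to 2 with DESeq2, and fovea against perimacula fell from 1 to 0 with the first 2 lanes. Leaving out each eye in turn gave 2 to 4 members in nasal against fovea and 0 to 3 in fovea against perimacula in retina. In RPE/choroid it gave 0 to 0 in nasal against perimacula and in fovea against perimacula and 2 to 5 in perimacula against periphery. For the tissue differences it gave 1 to 2 in nasal against fovea and nasal against periphery, 0 to 1 in fovea against perimacula, 2 to 5 in fovea against periphery and 1 to 3 in perimacula against periphery. Beyond the block values printed with the results above, the replicate block changed no other call of a member.

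Signs turned among values that were not called in the main fit, except TBX5 between the tissues at the periphery. With the first 2 lanes NR2F2 became -0.028 in nasal against fovea, TBX3 0.055 and NR2F1 -0.027 in nasal against perimacula, TBX2 0.017 and TBX3 0.019 in fovea against perimacula of retina, and the tissue difference became 0.13 for TBX2 in fovea against perimacula and 0.091 for VAX2 in perimacula against periphery. NR2F1 in nasal against perimacula of retina became -0.018 with no filter, -0.0098 with 10 counts in every library and -0.012 with the compared locations only. TBX5 in perimacula against periphery of retina became -0.058 with DESeq2. The tissue difference of TBX2 in fovea against perimacula became 0.0036 with DESeq2, 0.0014 with RLE normalization, 0.036 with 10 counts in every library and 0.026 with no covariate.

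Leaving out each eye in turn gave these ranges where a sign turned. In retina they were -0.039 to 0.13 for NR2F2 in nasal against fovea, -0.12 to 0.17 for NR2F1, -0.14 to 0.22 for TBX3 and -0.16 to 0.14 for NR2F2 in nasal against perimacula, -3.16 to 4.015 for TBX5 in nasal against periphery, -0.12 to 0.050 for TBX2 and -0.28 to 0.016 for NR2F2 in fovea against perimacula, and -1.27 to 6.76 for TBX5 in perimacula against periphery. In RPE/choroid they were -0.11 to 0.045 for TBX2 and -0.18 to 0.018 for NR2F2 in nasal against fovea, -0.062 to 0.13 for NR2F2 in nasal against perimacula, and -0.086 to 0.14 for VAX2, -0.0065 to 0.23 for NR2F2, -0.043 to 0.29 for FOXD1 and -0.17 to 0.057 for TBX2 in fovea against perimacula. Between the tissues they were -0.54 to 0.074 for FOXD1 in the fovea, and -0.25 to 0.18 for TBX2, -0.39 to 0.053 for TBX3 and -1.66 to 3.81 for TBX5 in the periphery. For the tissue differences they were -0.26 to 0.19 for NR2F2 and -0.093 to 0.31 for VAX2 in nasal against perimacula, -0.20 to 0.19 for VAX2, -3.06 to 3.26 for TBX5 and -0.041 to 0.51 for NR2F1 in nasal against periphery, -0.14 to 0.42 for FOXD1, -0.074 to 0.14 for TBX2 and -0.11 to 0.34 for NR2F1 in fovea against perimacula, -0.018 to 0.33 for NR2F2 in fovea against periphery, and -0.96 to 5.66 for TBX5, -0.31 to 0.29 for VAX2 and -0.65 to 0.073 for NR2F1 in perimacula against periphery.

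Over all genes, the 221 called in nasal against perimacula of retina became 786 by DESeq2, 30 with no covariate, 142 with the first 2 lanes and 14 to 76 on leaving out an eye. In RPE/choroid the 512 of nasal against perimacula became 1252 by DESeq2, 276 with the replicate block, 53 with no covariate, 1680 with the compared locations only and 31 to 202 without an eye, the 61 of nasal against fovea became 491, 30, 4, 409 and 0 to 10 in the same order, and the 28 of fovea against perimacula became 406, 9, 0, 416 and 0 to 7. For tissue differences, the 136 of nasal against perimacula became 409 by DESeq2, 34 with no covariate and 6 to 49 without an eye, the 2502 of nasal against periphery 1549 with no covariate and 1228 to 1838 without an eye, and the 2484 of fovea against perimacula 1647 with no covariate and 871 to 1899 without an eye. Without an eye the 3850 of nasal against fovea became 2528 to 3137 and the 3096 of perimacula against periphery 1800 to 2461.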
